A study of Mus musculus with 9 samples.

Results

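The genes described here are 30 mouse genes of the NRF2 antioxidant programme, chosen by symbol and found in the deposited count table through their Ensembl gene identifiers. All 30 were matched, of 57126 genes in the table, and all 30 were counted often enough to be tested. They were measured by RNA sequencing of polyadenylated RNA from mouse plasmacytoid dendritic cells (pDCs), the dendritic cells specialised in making type I interferon, which had been sorted by flow cytometry. There were 3 groups of 3 libraries each: pDCs treated with oxidized mitochondrial DNA (Ox-mtDNA), pDCs treated with mitochondrial DNA that was not oxidized (mtDNA), and pDCs treated with phosphate-buffered saline (PBS), the vehicle. Strain, genotype, sex, age, dose, duration and the way the DNA was oxidized or delivered are not given in the sources used here. Nor do the labels say whether replicates were separate animals or cultures, so a p-value here reflects only how much these samples vary. Part of that variation may be technical.

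NRF2, encoded by Nfe2l2, is a transcription factor that cells hold at a low level because the adaptor KEAP1 passes it to a ubiquitin ligase. Oxidants and electrophiles modify cysteines of KEAP1, NRF2 then escapes degradation, pairs with a small MAF protein and binds antioxidant response elements of genes for glutathione and thioredoxin enzymes, NADPH supply, heme breakdown and iron storage. In dendritic cells the pathway is known to restrain inflammatory activation. The level of Nfe2l2 mRNA is not a measure of NRF2 protein, which is controlled after translation.

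Total counts per library ranged from 16029951 to 25378884. Levels are given as CPM, the counts of a gene divided by the size of its library and put on a common scale, with TMM factors as a correction for differences in RNA composition between libraries. All 12 listed marker genes of pDCs were above 1 CPM in all 9 libraries, and Siglech, a pDC surface receptor, was between 1194 and 2439.8 CPM. The pDC markers had the highest sum of any cell type listed, 4839 to 12579 CPM. Markers of conventional dendritic cells summed to 355 to 827 CPM, those of B cells to 126 to 649 CPM, those of monocytes and macrophages to 252 to 455 CPM, those of T cells to 27.9 to 63.3 CPM, those of neutrophils to 4.12 to 23.6 CPM, those of natural killer cells to at most 2.23 CPM and those of erythroid cells to at most 1.06 CPM. In all groups the library numbered 3 was set off from those numbered 1 and 2 along the first principal component, which held 70.1% of the variance. These 3 libraries had Xist, the RNA that silences an X chromosome, at 818 to 2087 CPM, against at most 0.846 CPM elsewhere. Their genes on chromosome Y summed to 1.18 to 5.52 CPM, against 259 to 378 CPM elsewhere, where Xist marks female cells and chromosome Y male ones, so sex and replicate number 3 cannot be told apart. The 770 genes of more than 60% GC were lower in the libraries numbered 3 by medians of -2.99 to -3.70 on the log2 scale. For that reason each gene is described by replicate number, with the 3 values of a group always in the order of replicates 1, 2 and 3, and where a level in replicate 3 is low in all groups, it can be read only against the other libraries of that number. In bulk RNA, fewer cells of a type and less RNA per cell cannot be told apart.

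The promoters of several of these genes carry the letters that define the core of the antioxidant response element, and they are shown to give the sequence context of the levels below. The motif searched was TGACNNNGC, in which N is any base, on both strands (GCNNNGTCA on the other). It was looked for in windows of 300 bases, 250 before and 50 after each start site, taken from RefSeq on GRCm38.p6. Of the members 25 had a window, and 11 of these (44.0%) held a match, against 13.99% of the 27025 genes with a window and 12.4% of all 32851 windows. In 2 members the match also contains TGACTCA, the word bound by AP-1 factors. A match describes letters only and is not evidence of binding, and its absence speaks only of this window and this spelling. Other spellings of the element were not searched and are not marked, so a member without a match may still hold one. The 11 matched words, read in the direction of the motif, follow.
Nfe2l2: TGACTCCGC
Mafg: TGACCGTGC
Gclm: TGACGGTGC
Txnrd1: TGACAAAGC
Srxn1: TGACCTAGC
Prdx1: TGACTCAGC
Me1: TGACTCAGC
G6pdx: TGACTGAGC
Pgd: TGACATTGC
Sod1: TGACCACGC
Sesn2: TGACAGAGC

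Of these, 5 whole windows are printed, a choice made after the levels were seen: those of Srxn1, Me1, Gclm and Txnrd1, which differed most between Ox-mtDNA replicates 2 and 1 among the 11, and that of Prdx1, which shares its word with Me1. Capitals mark the matched letters in the direction of transcription, and positions are counted without a 0, so that the last of the 250 bases before the start site is -1 and the first of the 50 after it is 1. The windows lie at chr3:122245307-122245606 (plus strand) for Gclm, chr10:82858956-82859255 (plus strand) for Txnrd1, chr2:152105274-152105573 (plus strand) for Srxn1, chr4:116685349-116685648 (plus strand) for Prdx1 and chr9:86695865-86696164 (minus strand) for Me1, all on GRCm38.p6. The match begins at position -134 in Gclm, -92 in Txnrd1, 29 in Srxn1, -133 in Prdx1 and -6 in Me1. The word shared by Prdx1 and Me1 is the one that contains the AP-1 letters.
Gclm: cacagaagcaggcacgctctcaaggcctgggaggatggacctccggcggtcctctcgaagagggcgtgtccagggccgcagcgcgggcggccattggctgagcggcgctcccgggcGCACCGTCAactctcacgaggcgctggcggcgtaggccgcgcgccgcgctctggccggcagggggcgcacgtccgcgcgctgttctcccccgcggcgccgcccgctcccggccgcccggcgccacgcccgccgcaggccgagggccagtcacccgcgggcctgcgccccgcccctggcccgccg
Txnrd1: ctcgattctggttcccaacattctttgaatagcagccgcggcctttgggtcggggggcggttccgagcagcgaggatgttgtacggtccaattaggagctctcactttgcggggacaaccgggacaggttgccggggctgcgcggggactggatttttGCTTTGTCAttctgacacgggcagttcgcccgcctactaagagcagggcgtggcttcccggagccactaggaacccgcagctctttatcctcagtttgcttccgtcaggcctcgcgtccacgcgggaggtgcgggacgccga
Srxn1: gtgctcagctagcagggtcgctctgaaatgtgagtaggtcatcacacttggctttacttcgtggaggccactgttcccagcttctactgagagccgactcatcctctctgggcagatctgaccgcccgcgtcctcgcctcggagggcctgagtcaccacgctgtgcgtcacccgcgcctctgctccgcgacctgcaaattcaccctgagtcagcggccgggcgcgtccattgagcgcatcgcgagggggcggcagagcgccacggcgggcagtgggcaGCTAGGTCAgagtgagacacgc
Prdx1: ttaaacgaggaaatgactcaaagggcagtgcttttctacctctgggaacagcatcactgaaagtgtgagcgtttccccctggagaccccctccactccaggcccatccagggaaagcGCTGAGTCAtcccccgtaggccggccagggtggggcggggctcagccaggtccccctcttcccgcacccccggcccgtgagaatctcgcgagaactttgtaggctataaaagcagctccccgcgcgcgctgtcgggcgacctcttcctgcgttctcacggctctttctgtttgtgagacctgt
Me1: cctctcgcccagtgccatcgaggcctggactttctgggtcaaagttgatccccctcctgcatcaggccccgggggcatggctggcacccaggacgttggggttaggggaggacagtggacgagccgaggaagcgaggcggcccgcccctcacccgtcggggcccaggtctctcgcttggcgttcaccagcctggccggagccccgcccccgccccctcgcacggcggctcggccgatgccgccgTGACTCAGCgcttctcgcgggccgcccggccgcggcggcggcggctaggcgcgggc

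The 3 Ox-mtDNA libraries disagreed widely about many genes of the programme, but not about all of them. Among members with counts in all 3, the ratio of highest to lowest ran from 1.35 for Prdx3 to 719 for Srxn1. Ox-mtDNA replicate 2 held the highest level of the Ox-mtDNA group for 28 of 30 members, all but Gpx1 and Tkt (36.4% of all tested genes), and lay above all other 8 libraries of the study for 26 of 30. Over all 17555 tested genes the share with replicate 2 of Ox-mtDNA on top was 19.4%. Ox-mtDNA replicate 1 went the other way: it was below the other 5 libraries numbered 1 or 2 for 21 of 30 members, against 27.2% of all tested genes. The highest Ox-mtDNA library was more than 5 times the lowest for 16 of 30 members, against 28.1% of all tested genes. It was so for 11 members in mtDNA (24.7%) and 8 in PBS (23.3%). The lowest library was replicate 3 in 12 of the 16, all 11 and all 8. The ratio of highest to lowest was larger in Ox-mtDNA than in PBS for 27 members (58.7% of all genes) and larger than in mtDNA for 29 (57.8%).

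Replicates 1 and 2 of each group were compared directly, since replicate 3 differs from both in every group. Differences between libraries are in log2(CPM + 0.5), which understates the difference of low genes. Ox-mtDNA replicate 2 minus replicate 1 had a median of 2.16 over the members, with 23 of 30 above 1 (a doubling) and 1 below -1, while 14.2% of all tested genes were above 1 and 13.6% below -1. The same difference had a median of -0.14 in mtDNA, with 0 members above 1 (0.723% of all genes) and 3 below -1 (0.946%). In PBS the median was -0.23, with 0 members above 1 (1.16%) and 5 below -1 (1.17%). The correlation of log2 CPM between replicates 1 and 2 over all genes was 0.906 in Ox-mtDNA, 0.985 in mtDNA and 0.984 in PBS. As a description with no test, the median Ox-mtDNA difference was 3.14 in the 11 members with the promoter motif (10 of 11 above 1), 1.27 in the 14 with a window and no match (8 of 14 above 1) and 2.09 in the 5 without a window (5 of 5 above 1), which are Hmox1, Gclc, Gsr, Prdx6 and Abcc1. The members with no match include Slc7a11, whose difference of 7.26 is among the largest.

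**Figure D1:**
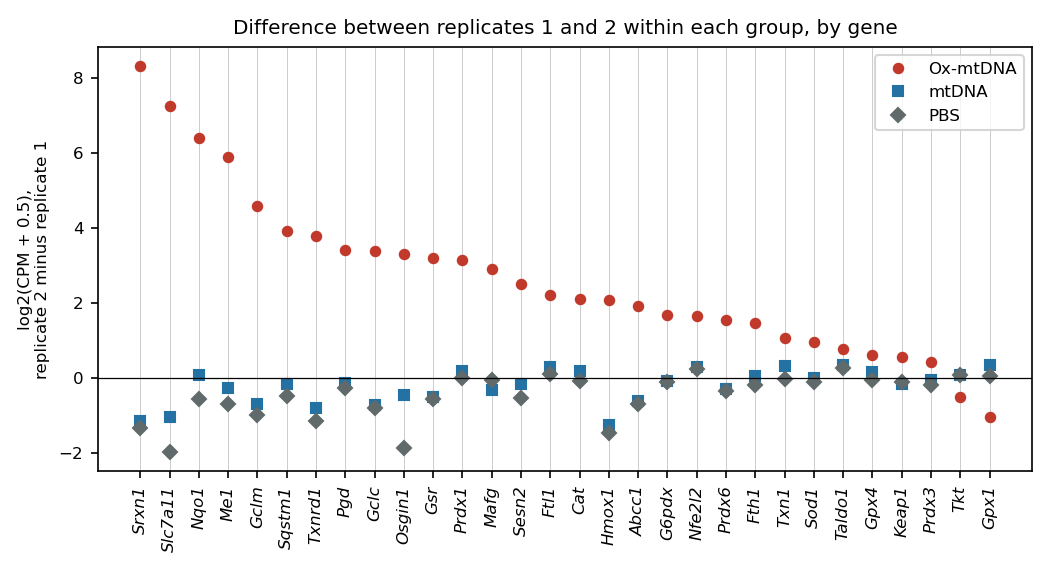
Difference between replicates 2 and 1 within each group, in log2(CPM + 0.5), for the 30 genes ordered by the Ox-mtDNA value; circles are Ox-mtDNA, squares mtDNA and diamonds PBS, 1 point for each pair of libraries. In Ox-mtDNA 28 of 30 genes lie above 0, with a median of 2.16, while the medians in mtDNA and PBS are -0.14 and -0.23.

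Markers of cell types differed between these libraries too. The summed pDC markers came to 10991, 4839 and 7601 CPM in Ox-mtDNA, against 8611, 10813 and 7192 CPM in mtDNA and 9944, 12579 and 8873 CPM in PBS. The 8 B cell markers summed to 293, 649 and 126 CPM in Ox-mtDNA, 224, 189.5 and 175 CPM in mtDNA and 371, 402 and 267 CPM in PBS. Ox-mtDNA replicate 2 was thus the lowest library of the study for the sum of pDC markers and the highest for the sum of B cell markers. Single markers did not all follow their sums. The pDC markers Irf8, Ly6d, Spib, Runx2, Tlr7 and Tlr9 were each lower in some other libraries. The B cell markers Cd79b and Fcer2a were each higher in some others. The 8 markers of conventional dendritic cells summed to 725, 355 and 827 CPM in Ox-mtDNA, 618, 621 and 739 CPM in mtDNA and 575.5, 623 and 791 CPM in PBS. This sum was again lowest in Ox-mtDNA replicate 2, but Itgax made up most of it, with 248 CPM in that library. Zbtb46, Xcr1 and Batf3 of the same list did not follow the sum and were each lower in some other libraries. The 10 monocyte and macrophage markers summed to 392.5 to 455 CPM in Ox-mtDNA, 282 to 434 CPM in mtDNA and 252 to 383 CPM in PBS. The part of these differences in the antioxidant genes was not tested.

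The regulators are NRF2 itself, KEAP1, a protein that binds KEAP1 and a partner of NRF2 on DNA. Nfe2l2 (chromosome 2, 75505857 to 75534985, minus strand, GRCm39, as are all gene positions here) was at 106, 333 and 205 CPM in Ox-mtDNA, 88.8, 109 and 245 CPM in mtDNA and 96.9, 114 and 141 CPM in PBS. Ox-mtDNA replicate 2 was the highest of the 9, and Ox-mtDNA replicate 1 lay inside the range of replicates 1 and 2 of the other groups. Sqstm1 (chromosome 11, 50090193 to 50101654, minus strand), which encodes the autophagy receptor p62 that binds KEAP1, was at 291, 4421 and 236 CPM in Ox-mtDNA, 718, 645 and 211 CPM in mtDNA and 575, 413 and 190.5 CPM in PBS. Ox-mtDNA replicate 2 was above all other libraries, Ox-mtDNA replicate 1 was below the other libraries numbered 1 and 2, and Ox-mtDNA replicate 3 was above its mtDNA and PBS counterparts; 20.6% of the exon bases of Sqstm1 overlap Mrnip, which was counted at far lower totals (1026 against 146893 fragments over the 9 libraries).

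Keap1 and Mafg were low in every library numbered 3. Keap1, the adaptor that holds NRF2 down, was at 81.9, 121 and 12.4 CPM in Ox-mtDNA, 146, 131 and 12.9 CPM in mtDNA and 142, 132 and 9.38 CPM in PBS. In replicates 1 and 2 the Ox-mtDNA library was below its mtDNA and PBS counterparts, and the groups overlapped. Of the exon bases of Keap1, 11.3% overlap Gm16754, where a fragment was counted for both. Gm16754 totalled 5292 fragments against 14951 for Keap1 over the 9 libraries. Mafg (chromosome 11, 120515943 to 120524426, minus strand), a small MAF partner of NRF2, was at 72.2, 548 and 3.51 CPM in Ox-mtDNA, 179.8, 144 and 3.26 CPM in mtDNA and 116, 112 and 3.26 CPM in PBS, so that Ox-mtDNA replicate 2 was again on top. Keap1 and Mafg have 58.0% and 54.9% GC, and PBS replicate 3 was lower than the mean of PBS replicates 1 and 2 by -3.80 and -4.93 on the log2 scale, so a replicate 3 value of these genes can be read only against replicate 3. Not every member rich in GC was low there: Gpx4, with 60.2% GC, differed by 0.44 and Gpx1, with 57.2%, by 1.06 in the same measure.

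**Figure D2:**
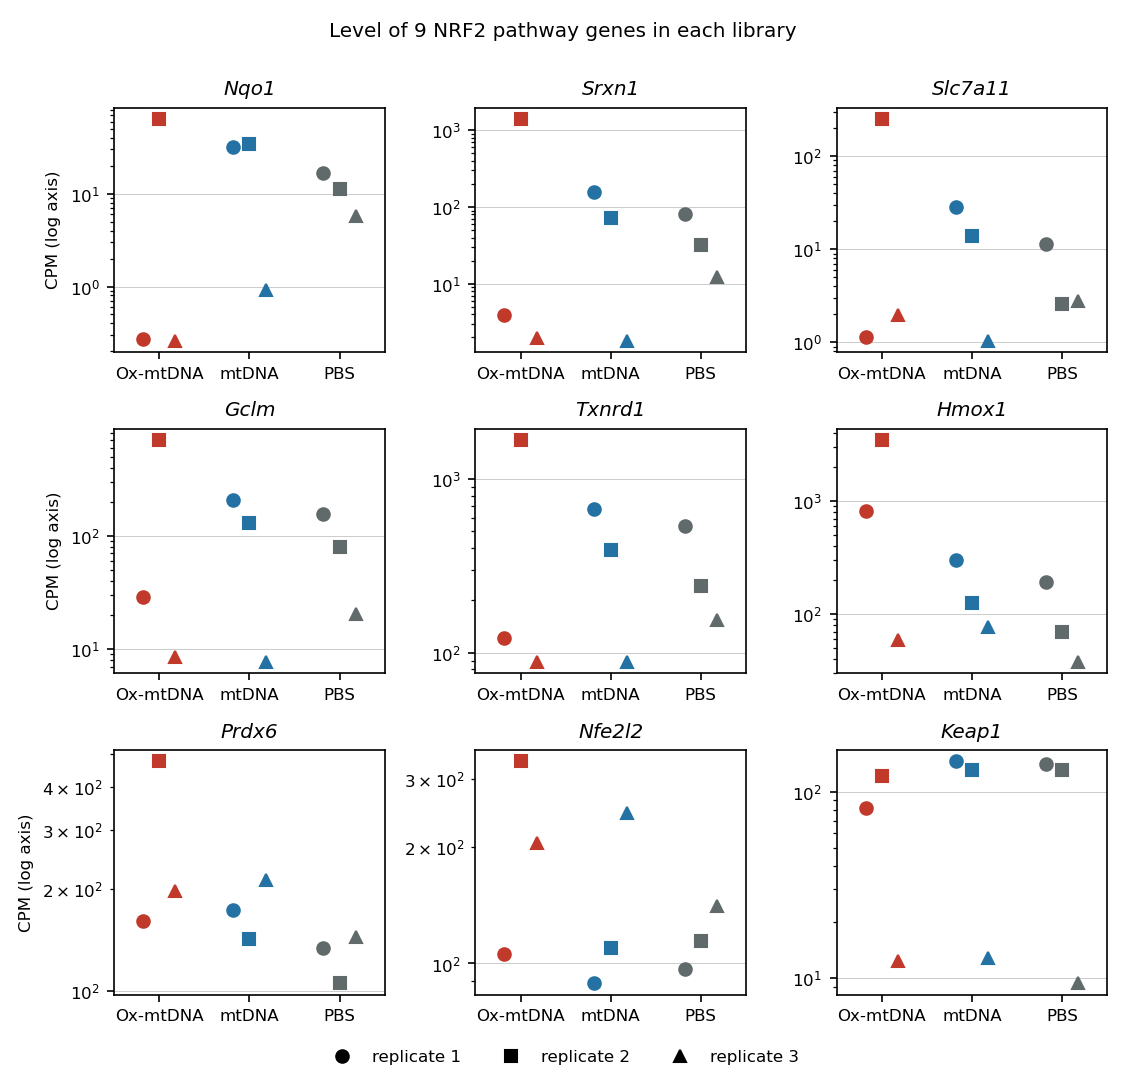
Level of 9 genes in each library, in CPM on a log axis that does not start at 0; colours are the groups and circles, squares and triangles are replicates 1, 2 and 3. Ox-mtDNA replicate 2 is the highest library for 8 of the 9 genes (not Keap1), while Ox-mtDNA replicate 1 is among the lowest for Nqo1, Srxn1, Slc7a11, Gclm and Txnrd1.

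The glutathione genes showed the disagreement most clearly at the steps that supply cysteine and build glutathione. Slc7a11 (chromosome 3, 49846975 to 50398063, minus strand), the cystine importer xCT, was at 1.15, 252 and 1.96 CPM in Ox-mtDNA, 28.7, 13.8 and 1.03 CPM in mtDNA and 11.4, 2.58 and 2.77 CPM in PBS. That is 4772 counts in Ox-mtDNA replicate 2 but 17 and 38 counts in Ox-mtDNA replicates 1 and 3. Gclm (chromosome 3, 122039206 to 122064381, plus strand), the modifier subunit of glutamate-cysteine ligase, was at 28.8, 701 and 8.56 CPM in Ox-mtDNA, 209, 129.8 and 7.67 CPM in mtDNA and 156, 79.2 and 20.5 CPM in PBS. Gclc (chromosome 9, 77661817 to 77701767, plus strand), its catalytic subunit, was at 44.6, 475 and 30.1 CPM in Ox-mtDNA, 272, 164 and 33.5 CPM in mtDNA and 262, 151 and 92.9 CPM in PBS. For both subunits Ox-mtDNA replicate 2 was above every other library, and Ox-mtDNA replicate 1 was below the other libraries numbered 1 and 2. Gsr, which regenerates reduced glutathione, was at 39.0, 366 and 27.7 CPM in Ox-mtDNA, 153, 109 and 23.0 CPM in mtDNA and 142, 96.9 and 54.2 CPM in PBS, in the same order.

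Of the glutathione peroxidases, Gpx1 did not follow that order and Gpx4 followed it within a narrow range. Gpx1, the abundant cytosolic peroxidase, was at 431, 212 and 542 CPM in Ox-mtDNA, 294, 373 and 455 CPM in mtDNA and 371, 386 and 789 CPM in PBS, so replicate 2 was its lowest Ox-mtDNA library. Its exons share 78.5% of their bases with an identifier that carries no symbol in the tables used, and a fragment there was counted for both. Gpx4, which reduces lipid hydroperoxides in membranes, was at 88.6, 136 and 114 CPM in Ox-mtDNA, 97.5, 109 and 111 CPM in mtDNA and 101, 96.5 and 134 CPM in PBS, within 1.54 times across the Ox-mtDNA libraries. Abcc1, an exporter of glutathione conjugates, was at 126, 482 and 241 CPM in Ox-mtDNA, 329, 216 and 241 CPM in mtDNA and 266, 165 and 197 CPM in PBS. Over the 7 glutathione genes the median difference from PBS of the same number was -1.85, 1.65 and -0.54 in Ox-mtDNA replicates 1, 2 and 3, against 0.10, 0.17 and -1.09 in mtDNA.

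Of the thioredoxin genes, Srxn1 had the largest ratio among the Ox-mtDNA libraries of the 29 members with counts in all 3. Srxn1 (chromosome 2, 151947444 to 151953296, plus strand), sulfiredoxin, which repairs overoxidized peroxiredoxins, was at 3.92, 1410.1 and 1.96 CPM in Ox-mtDNA, 158, 71.9 and 1.79 CPM in mtDNA and 80.4, 31.9 and 12.1 CPM in PBS. It had 26658 counts in Ox-mtDNA replicate 2, but 58 and 38 counts in replicates 1 and 3, a ratio of 719 between the highest and the lowest in CPM. Txnrd1 (chromosome 10, 82669785 to 82733546, plus strand), the cytosolic thioredoxin reductase, was at 121, 1682 and 88.0 CPM in Ox-mtDNA, 673, 389 and 88.7 CPM in mtDNA and 533, 242 and 154 CPM in PBS. In both genes Ox-mtDNA replicate 2 was above all libraries, while Ox-mtDNA replicates 1 and 3 were below all 3 PBS libraries. Ox-mtDNA replicate 3 lay close to mtDNA replicate 3 in both. Txn1, thioredoxin itself, was at 139.6, 292 and 192 CPM in Ox-mtDNA, 168, 210.4 and 163 CPM in mtDNA and 154, 152 and 191 CPM in PBS, a much narrower range.

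Peroxiredoxins, which break down hydrogen peroxide, split by member. Prdx1 (chromosome 4, 116542741 to 116558019, plus strand) was at 263, 2327 and 292 CPM in Ox-mtDNA, 617, 699.7 and 246 CPM in mtDNA and 536, 539.6 and 504 CPM in PBS. The PBS libraries of Prdx1 lay within 1.07 times of each other, whereas Ox-mtDNA replicate 2 was 8.84 times replicate 1. Prdx6 (chromosome 1, 161067682 to 161078789, minus strand), which also acts on phospholipid peroxides, was at 162, 478 and 198 CPM in Ox-mtDNA, 173, 143 and 213 CPM in mtDNA and 134, 105 and 144 CPM in PBS, with every Ox-mtDNA library above every PBS library. Prdx3, the mitochondrial peroxiredoxin, was at 42.7, 57.6 and 52.9 CPM in Ox-mtDNA, 41.5, 40.3 and 48.7 CPM in mtDNA and 41.9, 36.8 and 64.7 CPM in PBS, with overlapping groups. The median difference from PBS over the 6 thioredoxin and peroxiredoxin genes was -0.58, 2.14 and -0.54 in Ox-mtDNA replicates 1, 2 and 3.

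Cat, catalase, was at 124, 533 and 175 CPM in Ox-mtDNA, 278, 317 and 173 CPM in mtDNA and 280.1, 265 and 304 CPM in PBS. Sod1, the cytosolic copper-zinc superoxide dismutase, was at 165, 322 and 264 CPM in Ox-mtDNA, 182, 182 and 243 CPM in mtDNA and 195, 181 and 259 CPM in PBS. Both were highest in Ox-mtDNA replicate 2, and the other 2 Ox-mtDNA libraries of Cat were below all 3 PBS libraries, with replicate 3 close to mtDNA replicate 3.

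The genes that supply NADPH, the reducing power behind both systems, divided in the same way. Me1 (chromosome 9, 86463424 to 86578006, minus strand), cytosolic malic enzyme, had 0, 553 and 3 counts in Ox-mtDNA replicates 1, 2 and 3, against 105, 84 and 3 counts in mtDNA and 98, 51 and 16 counts in PBS. The 0 allows a level of up to 0.203 CPM in that library, a limit from counting error only, while Ox-mtDNA replicate 2 was at 29.3 CPM. Pgd (chromosome 4, 149234448 to 149251164, minus strand), which makes NADPH in the pentose phosphate pathway, was at 70.9, 769 and 79.6 CPM in Ox-mtDNA, 306, 279 and 67.9 CPM in mtDNA and 225, 186 and 139 CPM in PBS. G6pdx, the X-linked enzyme that starts that pathway, was at 61.3, 198 and 56.6 CPM in Ox-mtDNA, 106, 101 and 49.6 CPM in mtDNA and 107, 99.5 and 142 CPM in PBS. For these 3 genes Ox-mtDNA replicate 2 was above all other libraries and replicate 1 was below the other libraries numbered 1 and 2.

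The enzymes of the non-oxidative pentose phosphate branch differed less. Taldo1, transaldolase, was at 398, 679 and 579.9 CPM in Ox-mtDNA, 393, 505 and 484 CPM in mtDNA and 379.6, 460.5 and 547 CPM in PBS. Tkt, transketolase, was at 465, 331 and 639.5 CPM in Ox-mtDNA, 348, 371 and 542 CPM in mtDNA and 377, 399.7 and 339 CPM in PBS, lowest in Ox-mtDNA replicate 2. Across the 5 NADPH genes the median difference from PBS was -0.80, 0.99 and -0.76 in Ox-mtDNA replicates 1, 2 and 3.

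In heme and quinone metabolism, a pair of NRF2 targets disagreed with each other. Hmox1 (chromosome 8, 75820249 to 75827217, plus strand), heme oxygenase, which breaks down heme, was at 814, 3478 and 58.9 CPM in Ox-mtDNA, 299, 127 and 77.2 CPM in mtDNA and 192, 69.2 and 37.5 CPM in PBS. Ox-mtDNA replicates 1 and 2 were both above every mtDNA and PBS library, and Ox-mtDNA replicate 3, at 58.9 CPM, was above PBS replicate 3 and below mtDNA replicate 3. Nqo1 (chromosome 8, 108114857 to 108129838, minus strand), a quinone reductase that is a classical NRF2 target, was at 0.270, 64.4 and 0.258 CPM in Ox-mtDNA, 32.2, 34.5 and 0.924 CPM in mtDNA and 16.6, 11.1 and 5.77 CPM in PBS. It had 4, 1217 and 5 counts in Ox-mtDNA replicates 1, 2 and 3, so that replicates 1 and 3 were below all PBS libraries and replicate 2 was above them, and mtDNA replicate 3 was below all PBS libraries too. Hmox1 and Nqo1 therefore stood in opposite positions in Ox-mtDNA replicate 1.

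The ferritin chains store iron. Ftl1, the light chain, was at 2075, 9601 and 2443 CPM in Ox-mtDNA, 4139.8, 5083 and 2332 CPM in mtDNA and 4087, 4408 and 3533 CPM in PBS. Fth1 (chromosome 19, 9957962 to 9962462, plus strand), the heavy chain, was at 2164, 5997 and 2077 CPM in Ox-mtDNA, 2679, 2811 and 2556 CPM in mtDNA and 2314, 2029 and 1441 CPM in PBS, where every mtDNA library was above every PBS library. Per kilobase of exon, a scale on which genes can be compared, the PBS mean was 4142 CPM for Ftl1, 1238 CPM for Fth1 and 481 CPM for Gpx1, the 3 highest members, and 0.720 CPM for Me1, 0.599 CPM for Osgin1 and 0.568 CPM for Slc7a11, the 3 lowest. Of the exon bases of Ftl1, 36.7% overlap Gm10252, and fragments that align to several ferritin copies were not counted, so its level is uncertain.

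Of the stress-induced regulators, Osgin1 (chromosome 8, 120163857 to 120172995, plus strand), a growth inhibitor induced by oxidative stress, was at 4.73, 51.0 and 1.03 CPM in Ox-mtDNA, 4.64, 3.25 and 1.74 CPM in mtDNA and 3.02, 0.464 and 0.114 CPM in PBS. Its PBS libraries held only 65, 9 and 3 counts, so its fold changes rest on a low control. Sesn2 (chromosome 4, 132219343 to 132237812, minus strand), a sestrin that restrains growth signalling under stress, was at 27.1, 158 and 9.44 CPM in Ox-mtDNA, 55.7, 49.8 and 4.57 CPM in mtDNA and 53.9, 36.9 and 1.86 CPM in PBS. Like Keap1 and Mafg it was low in all 3 libraries numbered 3, and it has 58.7% GC. For both genes Ox-mtDNA replicate 2 was the highest of the 9 libraries.

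Ox-mtDNA was compared with PBS to ask how pDCs respond to oxidized mitochondrial DNA. By edgeR's quasi-likelihood test with Benjamini-Hochberg adjustment over all 17555 genes, 0 of 30 members passed the threshold of an adjusted p under 0.05, as did 0% of all genes. At an unadjusted p under 0.05 there were 3 members, all higher in Ox-mtDNA, against 5.88% of all genes that were higher, 3.93% that were lower and 9.81% in either direction. DESeq2 called 1 member, Hmox1 (adjusted p = 0.0369), against 2.12% of all genes, and had 5 members at an unadjusted p under 0.05, against 12.5%. With limma-voom 0 members passed (0% of all genes) and 1 was at an unadjusted p under 0.05 (8.65%). Of the members 26 had a positive log2 fold change, against 53.8% of all genes, and 4 a negative one (Cat, Keap1, Gpx1 and G6pdx). The median was 0.78 over the members and 0.06 over all genes tested. This direction rests on 1 library: without Ox-mtDNA replicate 2 the median was -0.81, and 8 members were positive and 22 negative. It also depends on the tool: limma-voom gave a median of 0.11, with 17 positive and 13 negative, and the same tool with weights for library quality and replicate number as a block gave -0.10, with 13 positive and 17 negative. The edgeR model above had no term for replicate number. With that block, edgeR gave a median of 0.24, with 22 positive and 8 negative.

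The 3 members at an unadjusted p under 0.05 were Hmox1, Osgin1 and Prdx6. Hmox1 averaged 1450.4 ± 1796 CPM in Ox-mtDNA and 99.7 ± 81.8 CPM in PBS (SD, n = 3 each), and its log2 fold change was 3.86 (SE 1.35, edgeR adjusted p = 0.472). Its differences from PBS of the same number were 2.08, 5.64 and 0.64, higher in 3 of 3 pairs. Osgin1 averaged 18.9 ± 27.8 CPM in Ox-mtDNA and 1.20 ± 1.59 CPM in PBS (SD, n = 3 each), and its log2 fold change was 3.97 (SE 1.61, edgeR adjusted p = 0.484), with pair differences of 0.57, 5.74 and 1.32. Prdx6 averaged 279 ± 173 CPM in Ox-mtDNA and 128 ± 20.2 CPM in PBS (SD, n = 3 each), and its log2 fold change was 1.12 (SE 0.425, edgeR adjusted p = 0.473), with pair differences of 0.27, 2.17 and 0.45. Without Ox-mtDNA replicate 2 the log2 fold changes were 2.12 for Hmox1, 1.24 for Osgin1 and 0.47 for Prdx6. Prdx6 was the 1 member whose groups did not overlap, against 7.39% of all genes with Ox-mtDNA above PBS, and 0 members lay wholly below PBS (8.08% of all genes).

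The members with the widest spread had fold changes with large errors. Srxn1 had a log2 fold change of 3.51 (SE 2.35, edgeR adjusted p = 0.743), made of pair differences of -4.20, 5.44 and -2.36. Slc7a11 had one of 3.93 (SE 2.07, edgeR adjusted p = 0.609), with pair differences of -2.86, 6.36 and -0.41. Nqo1 had one of 0.96 (SE 1.89, edgeR adjusted p = 0.99964), with pair differences of -4.47, 2.48 and -3.05. In all 3 genes the sign of the pair difference was positive in replicate 2 and negative in replicates 1 and 3, and without Ox-mtDNA replicate 2 the log2 fold changes were -3.83 for Srxn1, -1.86 for Slc7a11 and -5.38 for Nqo1. For Sqstm1 the log2 fold change was 2.07 (SE 1.14, edgeR adjusted p = 0.631), and for Nfe2l2 it was 0.87 (SE 0.508, edgeR adjusted p = 0.659), positive in 2 of 3 and 3 of 3 pairs. Without Ox-mtDNA replicate 2 they were -0.59 for Sqstm1 and 0.38 for Nfe2l2.

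By replicate number, the members' median difference between Ox-mtDNA and PBS was -0.89, 1.78 and -0.26 for numbers 1, 2 and 3. In replicate 1, 12 of 30 members were below -1 and 1 was above 1, against 6.33% and 8.08% of all genes. In replicate 2, 21 members were above 1 and 0 below -1, against 12.1% and 10.2% of all genes. In replicate 3, 2 members were above 1 and 5 below -1, against 16.4% and 8.64% of all genes. Ox-mtDNA was higher in all 3 pairs for 5 members (Hmox1, Nfe2l2, Osgin1, Prdx6 and Taldo1), where 20% of all genes were higher in all 3 pairs, and 0 members were lower in all 3 (17.6% of all genes). In libraries numbered 1 and 2 only, the members' median log2 fold change was 0.97, 28 were positive, 0 passed the threshold (0.146% of all genes) and 3 were at an unadjusted p under 0.05 (15.4%).

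**Figure D3:**
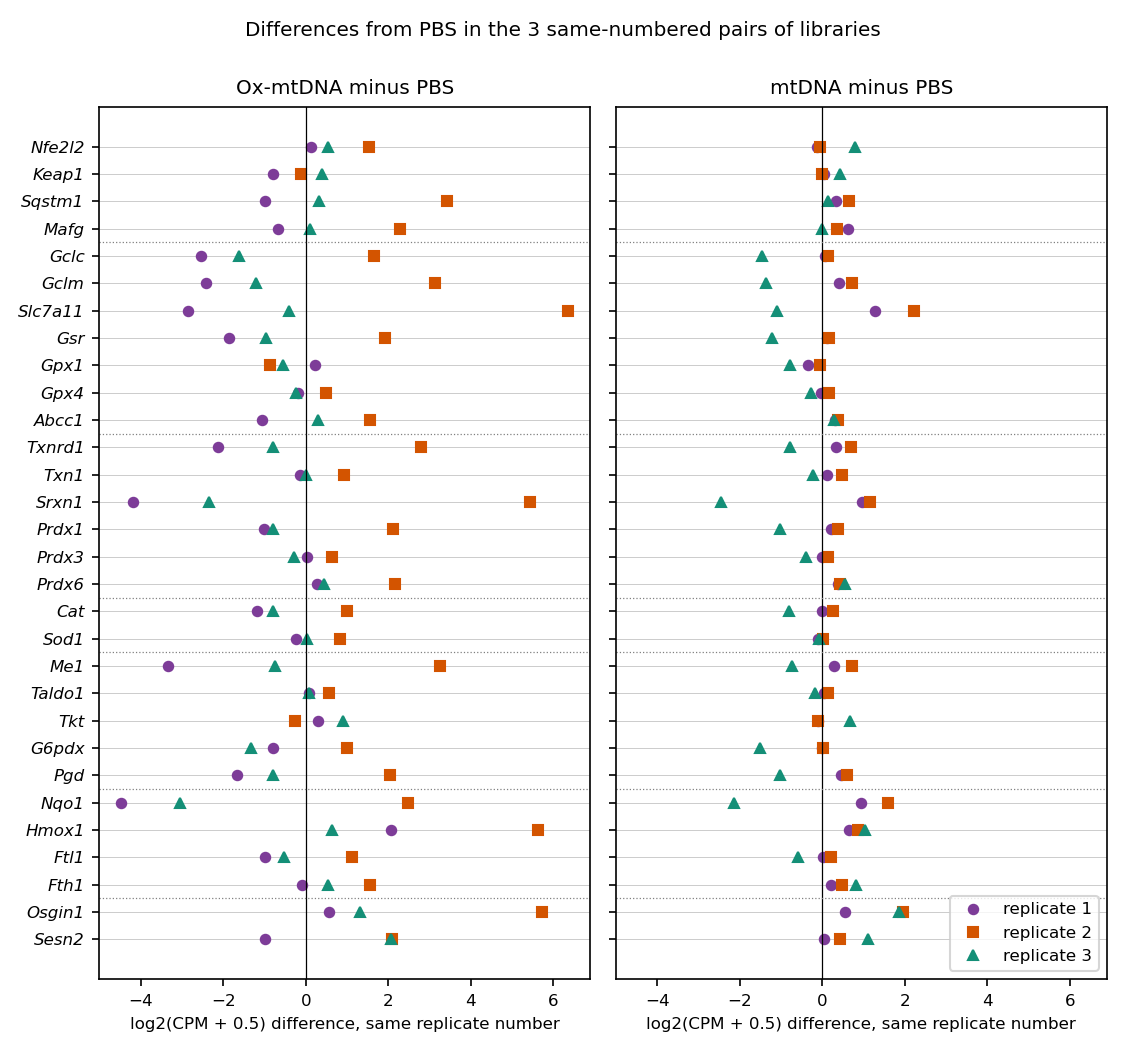
Difference from the PBS library of the same number, in log2(CPM + 0.5), for Ox-mtDNA (left) and mtDNA (right); circles, squares and triangles are replicates 1, 2 and 3, and dotted lines separate the roles. In Ox-mtDNA replicate 2 there are 21 genes above 1, in replicate 1 there are 12 below -1, and the mtDNA points of replicates 1 and 2 stay closer to 0.

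**Figure D4:**
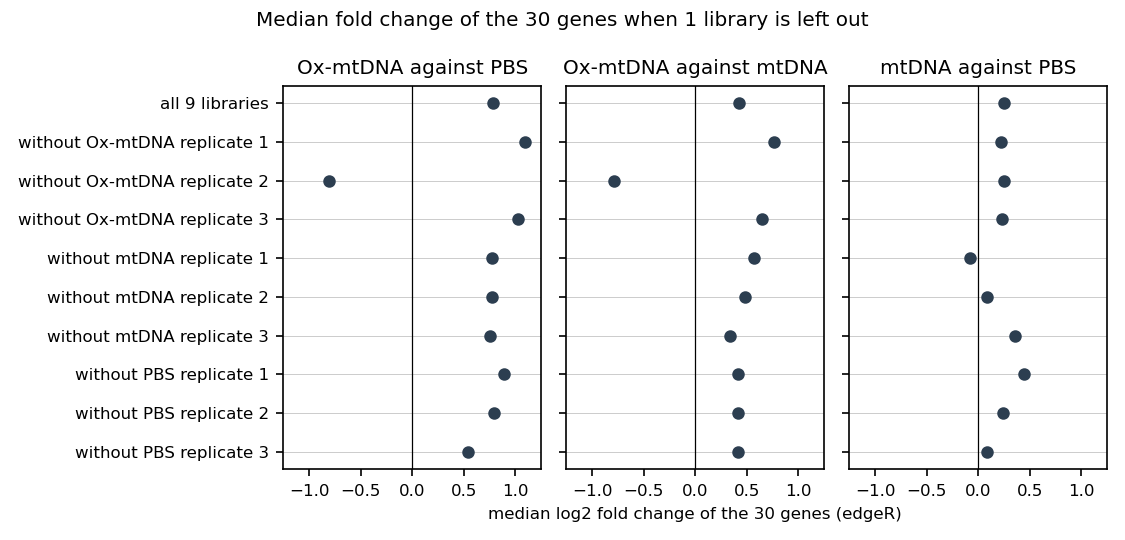
Median log2 fold change of the 30 genes (edgeR) in the 3 comparisons with all 9 libraries and with each library left out in turn; the vertical line is 0. Without Ox-mtDNA replicate 2 the median is -0.81 against PBS and -0.79 against mtDNA, and leaving out any other library keeps both above 0.

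The comparison of mtDNA with PBS, which shares its PBS libraries with the comparison above, asked how pDCs respond to DNA that was not oxidized. By edgeR 0 of 30 members passed the threshold (0% of all genes), and 0 were at an unadjusted p under 0.05, against 2.02% of all genes that were higher, 0.598% that were lower and 2.62% in either direction. DESeq2 also called 0 (0.0836% of all genes), with 0 at an unadjusted p under 0.05 (4.25%), and so did limma-voom (0% and 1.8%). The members' median log2 fold change was 0.25, against 0.02 over all genes, with 19 positive and 11 negative (52% of all genes were positive). Without mtDNA replicate 1 the median was -0.076, with replicate number as a block it was -0.047, and by limma-voom it was 0.010 with 17 positive and 13 negative. By limma-voom with quality weights and the block it was 0.22, with 24 positive and 6 negative. In libraries numbered 1 and 2 only it was 0.30 by edgeR, with 26 positive and 4 negative. Median pair differences were 0.16, 0.38 and -0.34 in replicates 1, 2 and 3. In replicate 1, 1 member was above 1 (2.22% of all genes), Slc7a11, and 0 were below -1 (0.33%). In replicate 2, 4 members were above 1 (3.12%), namely Slc7a11, Osgin1, Nqo1 and Srxn1, and 0 were below -1 (0.968%). In replicate 3, 3 members were above 1 (13.1%) and 9 below -1 (7.82%).

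Some members had the same sign in all 3 mtDNA pairs. There were 7 higher ones (Abcc1, Fth1, Hmox1, Osgin1, Prdx6, Sesn2 and Sqstm1), against 20.8% of all genes, and 1 lower one (Gpx1), against 19.4%. Fth1 averaged 2682 ± 127 CPM in mtDNA and 1928 ± 445 CPM in PBS (SD, n = 3 each), and it was the 1 member without overlap between these groups, where 5.58% of all genes had mtDNA wholly above PBS and 4.96% wholly below. Its log2 fold change was 0.48 (SE 0.434, edgeR adjusted p = 0.99997). Slc7a11, Srxn1 and Nqo1, which were higher in mtDNA replicates 1 and 2 than in PBS, were lower in mtDNA replicate 3, with pair differences of 1.29, 2.22 and -1.09 for Slc7a11, 0.97, 1.16 and -2.46 for Srxn1 and 0.94, 1.59 and -2.14 for Nqo1.

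Ox-mtDNA was set against mtDNA, with libraries already used in the comparisons above, to ask what oxidation of the DNA adds. By edgeR 0 members passed the threshold (0% of all genes) and 1 was at an unadjusted p under 0.05, Hmox1, against 0.923% of all genes that were higher in Ox-mtDNA, 1.48% that were lower and 2.4% in either direction. DESeq2 called 0 members (0.00574% of all genes) with 1 at an unadjusted p under 0.05 (3.36%), and limma-voom called 0 (0%) with 0 (2%). Hmox1 averaged 1450.4 ± 1796 CPM in Ox-mtDNA and 168 ± 116 CPM in mtDNA (SD, n = 3 each), and its log2 fold change was 3.11 (SE 1.30, edgeR adjusted p = 0.99995). Its pair differences were 1.44, 4.78 and -0.39, higher in 2 of 3 pairs. Without Ox-mtDNA replicate 2 the log2 fold change was 1.38. The members' median was 0.42, against 0.04 over all genes, with 28 positive and 2 negative (Keap1 and Nqo1), where 54.2% of all genes were positive. Without Ox-mtDNA replicate 2 it was -0.79, with 8 positive and 22 negative. By limma-voom it was 0.14, with 18 positive and 12 negative, and with quality weights and the block it was -0.29, with 10 positive and 20 negative.

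Replicate by replicate, the members' median difference between Ox-mtDNA and mtDNA was -1.01, 1.49 and 0.10. In replicate 1, 15 members were below -1 (9.14% of all genes) and 1 was above 1 (7.07%), Hmox1. In replicate 2, 18 were above 1 (10.2%) and 0 below -1 (9.51%). In replicate 3, 0 members were above 1 (2.07%) and 0 below -1 (0.615%). Groups did not overlap for 0 members in either direction, against 2.04% of all genes with Ox-mtDNA above and 2.79% below. Of the members 2 were higher in Ox-mtDNA in all 3 pairs (Prdx3 and Taldo1), against 15.1% of all genes, and 1 was lower (Keap1), against 12.7%.

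Beyond the members, 66 other genes of the pathway were listed by function, and 62 were tested. By edgeR 0 of them passed in any comparison. In Ox-mtDNA against PBS, 6 were higher and 5 lower at an unadjusted p under 0.05, with a median log2 fold change of 0.08 and 33 positive. Over all tested genes these shares were 5.88%, 3.93% and 53.8%, with a median of 0.06. Positive fold changes were found in 13 of 17 glutathione genes (median 0.36), 7 of 12 regulators and partners of NRF2 (median 0.13), 5 of 10 thioredoxin, peroxiredoxin and superoxide dismutase genes, 4 of 14 heme, iron and quinone genes (median -0.31) and 4 of 9 NADPH genes (median -0.06). In mtDNA against PBS, 1 was higher (2.02% of all genes) and 2 lower (0.598%), with a median of -0.15 and 23 positive (52%). In Ox-mtDNA against mtDNA, 1 was higher (0.923%) and 0 lower (1.48%), with a median of 0.17 and 42 positive (54.2%).

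Among these other genes, Slc3a2, the heavy chain that pairs with the Slc7a11 product in the cystine importer, was at 486, 1056 and 647 CPM in Ox-mtDNA, 266, 221 and 753 CPM in mtDNA and 192, 127 and 107 CPM in PBS. Every Ox-mtDNA library was above every PBS library, and so was every mtDNA library. Its log2 fold change in Ox-mtDNA against PBS was 2.36 (SE 0.552, edgeR adjusted p = 0.472), and in mtDNA against PBS it was 1.54 (SE 0.537, edgeR adjusted p = 0.99997). Idh1, the cytosolic isocitrate dehydrogenase that makes NADPH, was at 13.2, 21.3 and 12.6 CPM in Ox-mtDNA, 27.5, 36.5 and 12.1 CPM in mtDNA and 44.7, 69.6 and 88.9 CPM in PBS. All Ox-mtDNA libraries of Idh1 were below all PBS libraries, with a log2 fold change of -2.11 (SE 0.476, edgeR adjusted p = 0.472). All mtDNA libraries of Idh1 were below all PBS libraries too, with a log2 fold change of -1.41 (SE 0.466, edgeR adjusted p = 0.99997). Mthfd2, a mitochondrial enzyme of folate metabolism, was at 115, 194 and 118 CPM in Ox-mtDNA, 108, 88.5 and 107 CPM in mtDNA and 80.4, 37.0 and 58.5 CPM in PBS, with Ox-mtDNA wholly above PBS and a log2 fold change of 1.28 (SE 0.353, edgeR adjusted p = 0.472). For Mthfd2 mtDNA was wholly above PBS as well, with a log2 fold change of 0.78 (SE 0.350, edgeR adjusted p = 0.99997).

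In heme breakdown, the constitutive heme oxygenase and the enzyme after it stood opposite to Hmox1. Hmox2 was at 50.4, 39.1 and 54.9 CPM in Ox-mtDNA, 68.5, 76.3 and 63.6 CPM in mtDNA and 70.1, 80.9 and 121 CPM in PBS. Blvra, biliverdin reductase, was at 8.91, 9.997 and 12.6 CPM in Ox-mtDNA, 11.4, 15.8 and 13.05 CPM in mtDNA and 15.6, 17.4 and 26.4 CPM in PBS. In both genes every Ox-mtDNA library was below every PBS library, with log2 fold changes of -0.91 for Hmox2 and -0.91 for Blvra, and neither passed (edgeR adjusted p = 0.472 for each). Maff, another small MAF gene, was at 52.3, 149.7 and 9.65 CPM in Ox-mtDNA, 22.0, 19.9 and 9.19 CPM in mtDNA and 12.1, 8.46 and 0.797 CPM in PBS, with a log2 fold change of 3.31 (SE 1.17, edgeR adjusted p = 0.472) in Ox-mtDNA against PBS, and its groups overlapped. Cbr3, a carbonyl reductase, was at 0.540, 25.6 and 1.08 CPM in Ox-mtDNA, 0.694, 0.716 and 0.870 CPM in mtDNA and 1.12, 0.103 and 0.987 CPM in PBS. As with Srxn1 and Nqo1, the Cbr3 level stood out in Ox-mtDNA replicate 2.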

How the data were processed

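RNA of 9 libraries was measured, 3 in each of 3 groups assigned from sample titles. The deposited table held raw counts of fragments per gene, not normalized, per the file headers. Per the submitters' processing notes, the tools were fastp 0.23.4, STAR 2.7.11b and featureCounts 2.0.1 with GRCm39. Per the file headers, featureCounts counted paired fragments over exons of GENCODE genes without using strand, counted a fragment for each gene it overlapped, and did not count fragments with several alignments, so overlapping genes and near-identical copies are uncertain.

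Gene identifiers were matched to symbols with a gene name table (51884 of 57126, and 30 of 30 members). The filterByExpr step of edgeR 4.0.16 in R 4.3.3 (minimum count 10) left 17555 genes, which were normalized with TMM. All 9 libraries entered a single robust quasi-likelihood model, with a term for each group and 6 residual degrees of freedom. It had no term for replicate number, so differences between replicate numbers count as spread within the groups. A model with replicate number as a block is among the alternatives. The script was tested on simulated data. Adjusted p-values are Benjamini-Hochberg over all tested genes, with a threshold of 0.05, and the SE of a log2 fold change is its size divided by the square root of the F statistic. CPM used TMM-scaled library sizes, and differences between libraries used log2(CPM + 0.5). A count of 0 was taken to allow 3 counts. GC content came from the longest GENCODE transcript of each gene on GRCm38.

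Depth was 16029951 to 25378884 counts, so the differences between libraries and not the counting error set the precision for most members. Same-numbered libraries deviated together from their group means, with correlations of 0.48 to 0.89 over all 9 pairs. The library numbered 3 was set off in every group and enters every group mean. Positive correlations can therefore arise among the remaining libraries whether or not their numbers pair them. Correlations between differently numbered libraries of different groups are not given, so this check cannot decide whether those numbers pair the libraries. The numbers, taken from the sample titles, pair the libraries only in the same-numbered differences and in the models with the block. The main edgeR model was unpaired, and the labels do not say what a number stands for. Alternatives were DESeq2 1.42.0, its size factors in edgeR, limma-voom (limma 3.58.1) with and without quality weights and the block, other filters, fewer libraries and each library left out. All 30 members were named, and at most 3 genes per comparison from each of 5 lists of other pathway genes, those with the smallest unadjusted p. The members, lists and settings were chosen with earlier results of these data known. No test over the list of members was made. The levels of some single marker genes are not reported here.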

Additional observations from a re-analysis of the deposited data

How the results depend on the processing

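The members' count past the threshold was 0 in every comparison by edgeR and limma-voom under all settings tried, and DESeq2 called 1 member in Ox-mtDNA against PBS. The number of genes past the threshold depended on the tool. DESeq2 called 370 genes in Ox-mtDNA against PBS (260 higher and 110 lower), 14 in mtDNA against PBS and 1 in Ox-mtDNA against mtDNA. The same comparisons gave 423, 1337 and 14 genes with limma-voom, sample quality weights and the replicate block, none of them a member. edgeR with the replicate block called 1 gene in Ox-mtDNA against PBS, and replicates 1 and 2 only gave 25. The members' median log2 fold change turned with the replicate block in mtDNA against PBS (-0.047 by edgeR), and was 0.24 in Ox-mtDNA against PBS and 0.25 in Ox-mtDNA against mtDNA by edgeR with that block. With quality weights and the block it was -0.10 in Ox-mtDNA against PBS, -0.29 in Ox-mtDNA against mtDNA and 0.22 in mtDNA against PBS. By edgeR with the block, 0 members passed the threshold in any comparison. In Ox-mtDNA against mtDNA, 0 members were then at an unadjusted p under 0.05, against 1 without the block. Over all genes that count was 1195 with the block and 422 without it. The block changed the sign of 4 members in Ox-mtDNA against PBS, 6 in mtDNA against PBS and 2 in Ox-mtDNA against mtDNA. When each library was left out in turn, the members' median ranged from -0.81 to 1.10 in Ox-mtDNA against PBS. In Ox-mtDNA against mtDNA it ranged from -0.79 to 0.76, and both were negative only without Ox-mtDNA replicate 2. In mtDNA against PBS it ranged from -0.076 to 0.44, negative only without mtDNA replicate 1. Of 162 values compared over 18 settings, 147 kept their side or direction, 9 moved and 6 reversed. The cause was not tested. Depth did not limit most members, but Me1, Nqo1 and Osgin1 had 5 or fewer counts in some libraries. Many fold changes had large errors in the main edgeR model, with 3 libraries per group and no term for replicate number. In Ox-mtDNA against PBS, adding the block to edgeR lowered the SE from 1.19 to 0.25 for Keap1. The SE fell from 1.83 to 0.61 for Mafg and from 1.38 to 0.62 for Sesn2. For Srxn1, Slc7a11 and Abcc1 the SE was larger with the block.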
